A study of Mus musculus with 12 samples.

Results

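Tmcc3, Mest, Midn, C2cd4b and Csrnp1 are 5 genes of the mouse adrenal medulla that were higher after insulin than after saline in germ-free and in colonized mice. They were taken from 19505 genes measured on Affymetrix arrays. They were selected on their log2 values after insulin against those after saline, for a rise in both colonization states, so the insulin effects below are descriptions that carry no test. The array held 1 probe set for each of the 5 genes. The 12 male C57Bl6 mice fell into 4 groups of 3, with 1 array for each animal: germ-free mice given insulin, germ-free mice given saline, normally colonized mice given insulin and normally colonized mice given saline. Germ-free mice carried no gut microbes. All animals were fasted for 3 h and then received regular human insulin (Humulin, 2 IU/kg) or an equal volume of saline into the peritoneum, and the medullae were dissected 90 min later. The study set the response to insulin-induced hypoglycemia in germ-free mice against that in colonized mice. No age or blood glucose was given in the labels. Precision is limited by the 3 arrays of each group.

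A fall in blood glucose reaches the adrenal medulla through the splanchnic nerves, whose acetylcholine and neuropeptides depolarize the chromaffin cells. These cells then release adrenaline and switch on activity-dependent genes, among them immediate early transcription factors driven by cyclic AMP, calcium and MAP kinase signals. The 5 genes are less often described in this setting. Tmcc3 encodes a coiled-coil membrane protein of the endoplasmic reticulum, found at the junctions of its tubules. Mest is an imprinted gene read from the paternal allele, encodes a protein of the alpha/beta hydrolase fold and is known in mice as a marker of fat tissue expansion. Midn encodes midnolin, a nuclear protein that carries short-lived transcription factors to the proteasome without ubiquitin. C2cd4b encodes a small nuclear protein that belongs to a family named for its C2 domain, lies near a human risk locus for type 2 diabetes and is induced by inflammatory cytokines in human endothelial cells. Csrnp1 encodes a cysteine-serine-rich nuclear protein that activates transcription and was first described as a gene induced by AXIN1.

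The sequences upstream of the start sites are shown because the 5 genes rose together, and because sites for factors of the cyclic AMP and AP-1 pathways are written in plain letters that can be looked for. The 250 bases before each start were read from RefSeq promoter sequences of build GRCm38.p6, which held 16 windows for the 5 genes, all 5 matched by symbol. Capitals mark the core of the cyclic AMP response element (TGACG, or CGTCA on the other strand) and the AP-1 site (TGAGTCA or TGACTCA). For Tmcc3, Midn and Csrnp1, which have several starts, the window with the most marked bases is shown, a choice made on the matches themselves. C2cd4b has 1 window, and the Mest windows, which hold no marked base, are not shown.
Tmcc3, chr10:94550670-94550919, plus strand: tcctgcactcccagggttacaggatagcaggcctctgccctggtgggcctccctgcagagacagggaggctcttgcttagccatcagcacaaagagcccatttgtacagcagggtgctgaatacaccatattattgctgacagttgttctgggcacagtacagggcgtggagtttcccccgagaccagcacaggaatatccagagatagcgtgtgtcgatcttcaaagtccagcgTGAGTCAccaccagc
Midn, chr10:80148022-80148271, plus strand: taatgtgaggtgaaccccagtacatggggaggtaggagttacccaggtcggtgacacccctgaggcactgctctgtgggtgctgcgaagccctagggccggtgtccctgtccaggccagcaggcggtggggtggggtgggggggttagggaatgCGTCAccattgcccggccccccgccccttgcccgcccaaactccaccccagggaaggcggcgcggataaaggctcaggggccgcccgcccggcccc
Csrnp1, chr9:119983024-119983273, minus strand: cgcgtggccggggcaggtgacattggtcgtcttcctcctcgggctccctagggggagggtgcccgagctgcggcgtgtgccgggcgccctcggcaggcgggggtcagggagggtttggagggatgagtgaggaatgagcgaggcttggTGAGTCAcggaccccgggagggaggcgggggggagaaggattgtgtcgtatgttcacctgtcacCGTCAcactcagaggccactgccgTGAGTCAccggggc
C2cd4b, chr9:67759187-67759436, plus strand: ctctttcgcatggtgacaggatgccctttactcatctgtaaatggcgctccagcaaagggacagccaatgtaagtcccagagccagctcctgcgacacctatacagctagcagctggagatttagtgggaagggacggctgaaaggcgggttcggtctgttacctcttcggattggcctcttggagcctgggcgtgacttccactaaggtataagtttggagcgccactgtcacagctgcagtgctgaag
The cyclic AMP core was present in 6 of the 16 windows, namely 4 of the 4 for Csrnp1, 1 of the 2 for Midn and 1 of the 6 for Tmcc3. Among 19143 windows of genes on the array, 20.9% held it. Windows at one position were merged for the members but not in that count. Counted by gene, 3 of the 5 members and 23.4% of 15691 genes held the core in any window. No test was made of these shares. Counted from the start site, the core began at -96 in the Midn window shown and at -38 in the Csrnp1 window shown, and in Tmcc3 it lay in another window than the one shown. The AP-1 site was found in 1 window of Csrnp1, where it began at -102 and at -14, and in 1 window of Tmcc3, at -15. Of all windows 4.11% held an AP-1 site, and counted by gene 2 of the 5 members and 4.84% of 15691 genes did. The single C2cd4b window and the 3 Mest windows held neither. The full cyclic AMP response element (TGACGTCA, in 1.99% of windows), the FOXO site (TGTTTAC or GTAAACA, in 2.60%) and the NBRE site bound by NR4A receptors (AAAGGTCA or TGACCTTT, in 1.21%) were in none of the 16. A match of letters is not a bound site, and windows of one gene can overlap.

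The arrays of the same group correlated at r = 0.954 to 0.993 across named probe sets, and arrays of different colonization states at 0.958 to 0.987. The medians of 5222 negative control probe sets lay at 5.30 to 5.54 on the 6 germ-free arrays and at 4.70 to 4.83 on the 6 colonized arrays, so the background of the 2 sets did not overlap. This offset is shared by every array of a state, and its part in differences between germ-free and colonized mice cannot be told apart from colonization. The tissue carried the defining chromaffin markers, with 10 of 12 measured and none of these 10 with a mean below the negative control median in any group. Their mean was 10.14 ± 0.26 (SD, n = 3) in germ-free insulin, 10.85 ± 0.09 in germ-free saline, 11.20 ± 0.24 in colonized insulin and 11.00 ± 0.27 in colonized saline mice. Adrenal cortex markers lay at 12.70 ± 0.02, 12.73 ± 0.01, 12.61 ± 0.03 and 12.44 ± 0.18 in that order of groups, and adipocyte markers at 10.39 ± 0.22, 9.28 ± 0.38, 7.13 ± 1.33 and 8.73 ± 2.06. Of the 10 chromaffin markers, 7 were called lower in germ-free than in colonized mice by the mean germ-free effect (limma), 8 were called lower in the comparison after insulin and 0 in that after saline. Of all named probe sets 11.5% were called lower by the mean effect. In either direction 7.77% were called after insulin and 6.9% after saline. Within germ-free mice 3 of the 10 chromaffin markers were called lower after insulin than after saline, where 0.439% of all named probe sets were called in either direction. Pituitary markers (5 of 5 measured) had a mean of 6.98 to 8.14 in germ-free insulin, against 5.11 to 5.71 in germ-free saline mice, and 4 of 5 were called higher after insulin there. Intestinal epithelium markers (6 of 6 measured) lay at 5.02 to 5.34 in germ-free insulin, against 7.74 to 9.67 in germ-free saline mice, and 5 of 6 were called lower after insulin there. In colonized mice none of these 3 lists had a marker called for insulin, beside 0.153% of all named probe sets. Liver markers (5 of 5 measured) had a median insulin effect of -2.13 in germ-free and -2.11 in colonized mice with none called. Their mean ran from 5.80 to 11.36 over colonized saline arrays and from 6.01 to 6.26 over colonized insulin arrays. Over germ-free arrays it ran from 9.08 to 10.70 after saline and from 7.24 to 9.30 after insulin. By the mean germ-free effect 5 of 5 liver markers were higher in germ-free mice, 1 of them called, beside 6.14% of all named probe sets called higher. Schwann and sustentacular markers were called lower in germ-free mice by that effect for 3 of 5 measured, beside 11.5% of all named probe sets. The part of pituitary, intestinal, liver, Schwann and sustentacular cells in the members' effects was not tested. In such pieces of tissue fewer cells of a type and less RNA per cell cannot be told apart.

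**Figure D1:**
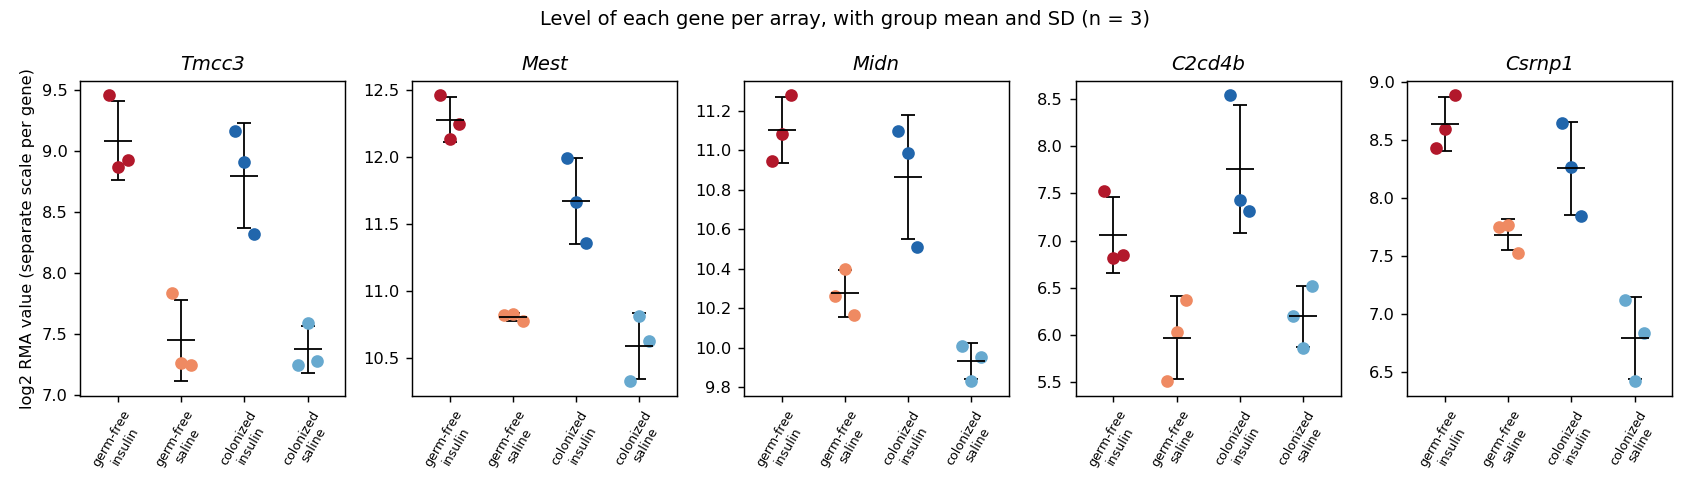
Log2 RMA values (vertical axis, a separate scale for each gene) of the 5 genes on each array, with the 4 groups on the horizontal axis. Points are single arrays, long ticks the group mean and whiskers the SD (n = 3). For every gene the 3 insulin arrays of each state lie above the 3 saline arrays of that state.

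Mest was the brightest of the 5 probe sets, above 99% of the negative controls on each array. It stood at 12.46, 12.13 and 12.24 on the log2 scale in germ-free insulin mice, against 10.82, 10.83 and 10.77 in germ-free saline mice. In colonized mice it stood at 11.99, 11.66 and 11.35 after insulin, against 10.33, 10.82 and 10.62 after saline. The insulin and saline arrays were apart in each state, and the germ-free insulin arrays were the highest of all. The difference of insulin minus saline was 1.47 ± 0.17 in germ-free mice (SE, limma, a 2.77-fold level) and 1.08 ± 0.17 in colonized mice (2.12-fold).

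Tmcc3, the endoplasmic reticulum protein, had the largest insulin effect of the 5 in germ-free mice. Its values were 9.45, 8.87 and 8.92 in germ-free insulin mice, against 7.83, 7.27 and 7.24 in germ-free saline mice. The colonized values were 9.16, 8.91 and 8.32 after insulin, against 7.25, 7.59 and 7.28 after saline. Levels after saline were nearly the same in both states, and colonized insulin animal 6 was the lowest of the 6 insulin arrays. The insulin effect was 1.64 ± 0.23 in germ-free mice (3.11-fold) and 1.42 ± 0.23 in colonized mice (2.68-fold). Ranked by the smaller of its effects in the 2 states, Tmcc3 came at place 4 of 19505 genes, C2cd4b at 6, Mest at 9, Csrnp1 at 14 and Midn at 18.

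Midn had the smallest insulin effects of the 5 and the least spread between arrays of a group. It was at 10.94, 11.08 and 11.28 in germ-free insulin mice, against 10.26, 10.40 and 10.17 in germ-free saline mice. In colonized mice it was at 11.10, 10.99 and 10.51 after insulin, against 10.01, 9.83 and 9.96 after saline. Every germ-free saline array was above every colonized saline array, and the insulin arrays of the 2 states overlapped. The insulin effect was 0.83 ± 0.15 in germ-free mice (1.77-fold) and 0.93 ± 0.15 in colonized mice (1.91-fold). The residual SD of Midn within groups was 0.19 on the log2 scale, close to the 0.18 that was the median of all genes, while that of C2cd4b was 0.48.

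Csrnp1, the transcriptional activator, was at 8.43, 8.59 and 8.88 in germ-free insulin mice, against 7.75, 7.77 and 7.53 in germ-free saline mice. It was at 8.65, 8.27 and 7.85 in colonized insulin mice, against 7.13, 6.42 and 6.83 in colonized saline mice. The lowest 3 arrays of the 12 were the colonized saline ones, and the lowest colonized insulin array (7.85) exceeded the highest germ-free saline array (7.77) by only 0.08. The insulin effect was 0.95 ± 0.21 in germ-free mice (1.93-fold) and 1.46 ± 0.21 in colonized mice (2.75-fold).

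C2cd4b was the dimmest of the 5 and the only one that was lower on average in germ-free mice after both treatments. It was at 7.53, 6.81 and 6.84 in germ-free insulin mice, against 5.51, 6.04 and 6.37 in germ-free saline mice. Colonized values were 8.54, 7.43 and 7.31 after insulin, against 6.20, 5.87 and 6.52 after saline. Colonized insulin animal 4 stood above all other arrays, and the groups of each state did not overlap between treatments. On germ-free saline array 7 only 51.7% of the negative controls lay below it, against 98.0% on colonized insulin array 4, so that its saline level in germ-free mice was close to background and its fold change is not exact. The insulin effect was 1.09 ± 0.33 in germ-free mice (2.12-fold) and 1.56 ± 0.33 in colonized mice (2.95-fold). Without colonized insulin animal 4 the colonized effect was 1.17.

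All 5 genes had 3 insulin arrays above 3 saline arrays in each state, which held for 0.863% of the 19572 named probe sets. The choice of the genes asked for such a rise, and nothing is read from that count. The difference of the 2 insulin effects, germ-free minus colonized, was 0.21 ± 0.33 for Tmcc3 (95% interval -0.51 to 0.93) and 0.39 ± 0.24 for Mest (-0.12 to 0.90). It was -0.11 ± 0.21 for Midn (-0.57 to 0.36), -0.48 ± 0.46 for C2cd4b (-1.49 to 0.53) and -0.51 ± 0.30 for Csrnp1 (-1.17 to 0.15). These differences are made of the effects that chose the genes and were not tested. The intervals give the precision of the estimates, and nothing is read from whether they include 0. The sign of this difference depended on the fit for 4 of the 5 genes. With the mean of the chromaffin markers as a covariate it was 0.93 for C2cd4b, 0.04 for Csrnp1 and 0.11 for Midn, and the germ-free insulin effect was 2.19 for C2cd4b and 1.38 for Csrnp1. With the adipocyte covariate it was 0.12 for Midn, and with the adrenal cortex covariate -0.08 for Tmcc3. It stayed above 0 for Mest in all 21 alternatives, from 0.19 to 0.57.

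**Figure D2:**
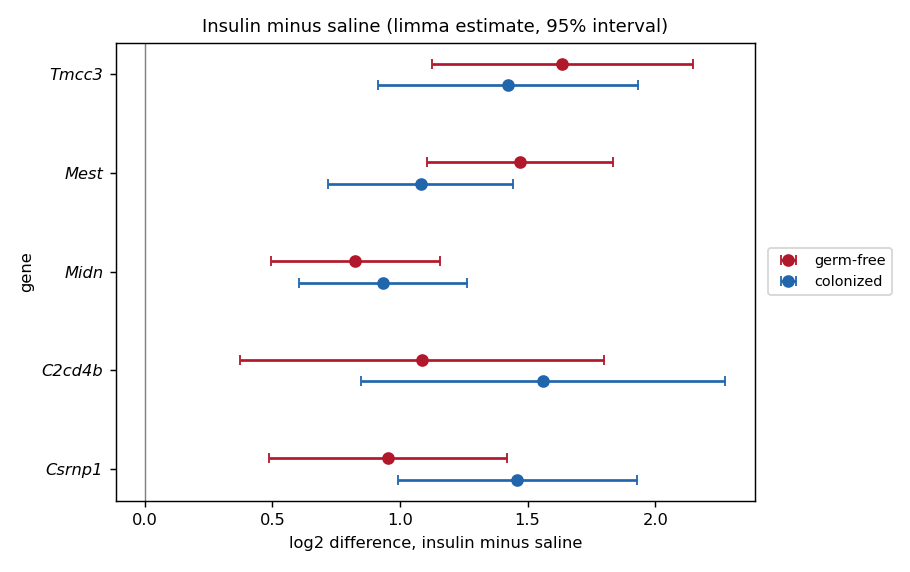
Insulin minus saline on the log2 scale (horizontal axis) for each gene (vertical axis), in germ-free and in colonized mice, with limma estimates as points and 95% intervals as whiskers. Tmcc3 and Mest have the higher estimate in germ-free mice (1.64 and 1.47), and Midn, C2cd4b and Csrnp1 in colonized mice (0.93, 1.56 and 1.46).

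The germ-free effect averaged over insulin and saline is the contrast on which the choice of the genes did not draw, since it is orthogonal to both insulin effects. It asks whether the level of a gene differed between the arrays of the 2 colonization states. Colonization and the offset in negative controls between these arrays cannot be told apart in it. The Csrnp1 level was 0.63 ± 0.15 higher in germ-free mice (SE, 1.55-fold, limma adjusted p = 0.0140 over all named probe sets, n = 6 arrays for each state). The Mest level was 0.41 ± 0.12 higher (1.33-fold, limma adjusted p = 0.0307). Midn (0.29 ± 0.11, adjusted p = 0.0819), Tmcc3 (0.18 ± 0.17, adjusted p = 0.503) and C2cd4b (-0.46 ± 0.23, adjusted p = 0.198) did not pass the threshold of 0.05. In this comparison 17.6% of all named probe sets passed, 6.14% as higher and 11.5% as lower in germ-free mice, and 2 of the 5 genes did. Mest lost its call in 8 of the 12 fits without 1 array: without colonized saline animal 1, colonized insulin animals 5 and 6, germ-free saline animals 7, 8 and 9 and germ-free insulin animals 10 and 12, at adjusted p of 0.0540 to 0.0726. Csrnp1 kept its call in all 12. With the mean of the chromaffin markers as a covariate neither was called, although the estimates were larger, at 1.00 ± 0.27 for Csrnp1 and 0.53 ± 0.22 for Mest. With the adrenal cortex markers neither was called at 0.42 ± 0.23 for Csrnp1 and 0.60 ± 0.18 for Mest. The estimate for C2cd4b turned to 0.47 with the chromaffin covariate and was -0.68 with the adrenal cortex covariate. With array weights C2cd4b was called lower in germ-free mice (-0.68, limma adjusted p = 0.0318).

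After insulin alone, Mest was higher in germ-free than in colonized mice by 0.61 ± 0.17 (limma adjusted p = 0.0457), with 3 of 3 germ-free arrays above all colonized arrays, as for 12% of all named probe sets. It was the only one of the 5 to pass there, where 7.77% of all named probe sets passed and 2.62% passed as higher, and leaving out any of 9 arrays ended the call. After saline alone, Csrnp1 was 0.89 ± 0.21 above its colonized level in germ-free mice (limma adjusted p = 0.0313), and was the only one of the 5 to pass, where 6.9% of all named probe sets passed and 2.82% passed as higher. The 3 germ-free arrays of Csrnp1 and of Midn lay above all colonized arrays, as for 11% of all named probe sets. That call was lost without any one of colonized saline animals 2 and 3 and germ-free saline animals 7, 8 and 9. Leaving out single arrays gave 0.45 to 0.77 for Mest after insulin and 0.70 to 1.05 for Csrnp1 after saline. The arrays of these comparisons also entered the insulin effects by which the genes were chosen.

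**Figure D3:**
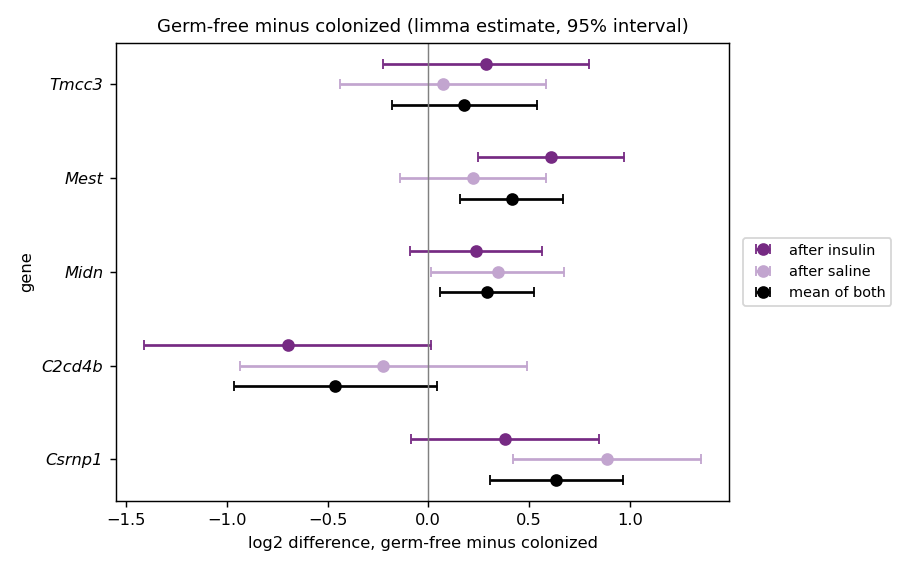
Germ-free minus colonized on the log2 scale (horizontal axis) for each gene (vertical axis), after insulin, after saline and as the mean of both, with limma estimates as points and 95% intervals as whiskers. The mean effect is 0.63 for Csrnp1 and 0.41 for Mest, and below 0 for C2cd4b (-0.46).

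Ordered by level, Tmcc3, Mest, Midn and Csrnp1 had the same sequence of group means: colonized saline lowest, then germ-free saline, colonized insulin and germ-free insulin. Between colonized saline and germ-free saline the arrays overlapped for Tmcc3 and Mest. They were apart for Midn and Csrnp1, with germ-free mice higher, as for 11% of all named probe sets. Between germ-free saline and colonized insulin they were apart for all 4. Between colonized insulin and germ-free insulin they were apart for Mest, with germ-free mice higher, as for 12% of all named probe sets. They overlapped there for Tmcc3, Midn and Csrnp1. C2cd4b had another sequence, with germ-free saline lowest, then colonized saline, germ-free insulin and colonized insulin, and its arrays were apart only between colonized saline and germ-free insulin. The choice of the genes for a rise after insulin favours gaps between a saline and an insulin group. Their share over all probe sets was not counted, and nothing is read from them.

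Deviations of each array from its group mean were not used to choose the genes, and they showed which members varied together between animals. Midn and Csrnp1 deviated together at r = 0.88, and Tmcc3 and Mest at r = 0.79, over 12 arrays. The other 8 pairs lay between 0.10 (Mest and Csrnp1) and 0.53 (Mest and C2cd4b). The colonized insulin group contributed the widest deviations: animal 4 was above the group mean for 5 of 5 genes and animal 6 for 0 of 5. Germ-free insulin animal 11 was also above it for 0 of 5. These correlations are descriptions of arrays that share their normalization, and each group holds 3 animals.

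**Figure D4:**
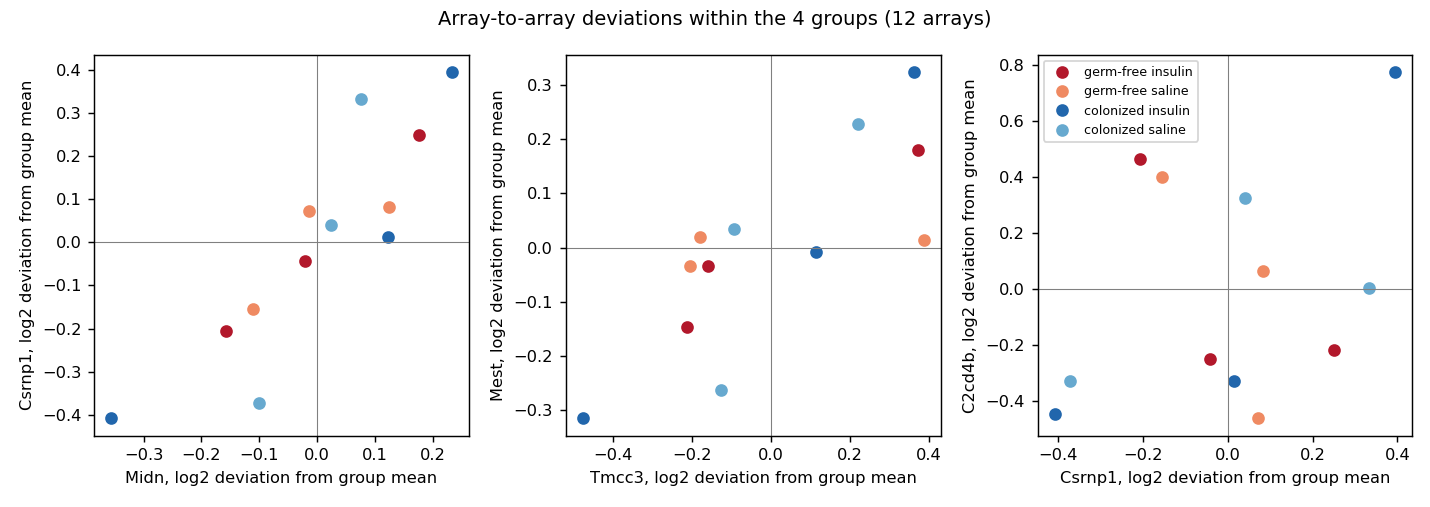
Deviation of each array from the mean of its group on the log2 scale, for Csrnp1 against Midn, Mest against Tmcc3 and C2cd4b against Csrnp1, with 1 point for each of 12 arrays and colours for the 4 groups. The first pair has r = 0.88, the second r = 0.79 and the third r = 0.34.

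Likeness was sought among 14210 genes whose mean exceeded the median of all negative control values (5.05). That limit is below the control median of each germ-free array (5.30 to 5.54). From this set the genes whose levels most resembled each member over the 12 arrays were taken. For Tmcc3 they were Tac1, the precursor of substance P (Pearson r = 0.98), Gprc5a, an orphan G protein-coupled receptor (0.96), and Gclc, the catalytic subunit of glutathione synthesis (0.94). For Mest they were Fam107b (0.97), the inducible cyclooxygenase Ptgs2 (0.95) and Tac1 (0.95). For Midn they were Ptgs2 (0.95), Fam107b (0.95) and the orphan receptor Nr4a2 (0.93). C2cd4b had another set, with the neuropeptide precursors Vgf (0.96) and Gal (0.96) and the orphan receptor Gpr19 (0.95). Csrnp1 was most like Nr4a2 (0.94), the protein C receptor Procr (0.93) and the small Maf factor Maff (0.93). These values share the 4 groups, so a correlation over 12 arrays holds the group differences as well. Over deviations from the group means the closest genes were others: Ftcd, Gfi1b and Isg15 for Tmcc3, Catsperg1, Cacna1s and Ankrd33 for Mest, Dusp5, Trim62 and Nkap for Midn, Slfn14, Cxxc4 and Mc3r for C2cd4b, and Gtf2a1, Tmem181c-ps and Ttc3 for Csrnp1. The highest of these for each member had r between 0.91 and 0.98. A maximum over 14210 genes and only 12 arrays is high for unrelated genes also. No reference for such a maximum was taken, and nothing is read from these names.

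None of the 7 measured paralogs of Tmcc3, Csrnp1 and C2cd4b was called for insulin in either state (limma, where 0.439% of named probe sets were called in germ-free and 0.153% in colonized mice). The members were chosen for their insulin effects and the paralogs were not, so a gap between them follows from the choice. Tmcc1, which acts at contacts of the endoplasmic reticulum with endosomes, had -0.22 ± 0.10 in germ-free and -0.24 ± 0.10 in colonized mice. Tmcc2 had -0.13 ± 0.13 and 0.03 ± 0.13 in the same order, Csrnp2 -0.14 ± 0.17 and 0.30 ± 0.17, and Csrnp3 -0.36 ± 0.20 and -0.38 ± 0.20. C2cd4a, the neighbour of C2cd4b on its chromosome, had 0.21 ± 0.16 and 0.02 ± 0.16. C2cd4c had 0.18 ± 0.23 and 0.19 ± 0.23, and C2cd4d had 0.00 ± 0.15 and 0.15 ± 0.15. By the mean germ-free effect Csrnp3 was lower in germ-free mice (-0.62 ± 0.14, limma adjusted p = 0.0121), as was Tmcc2 (-0.34 ± 0.09, adjusted p = 0.0270), while Csrnp1 was higher. In that comparison 11.5% of all named probe sets were called lower.

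**Figure D5:**
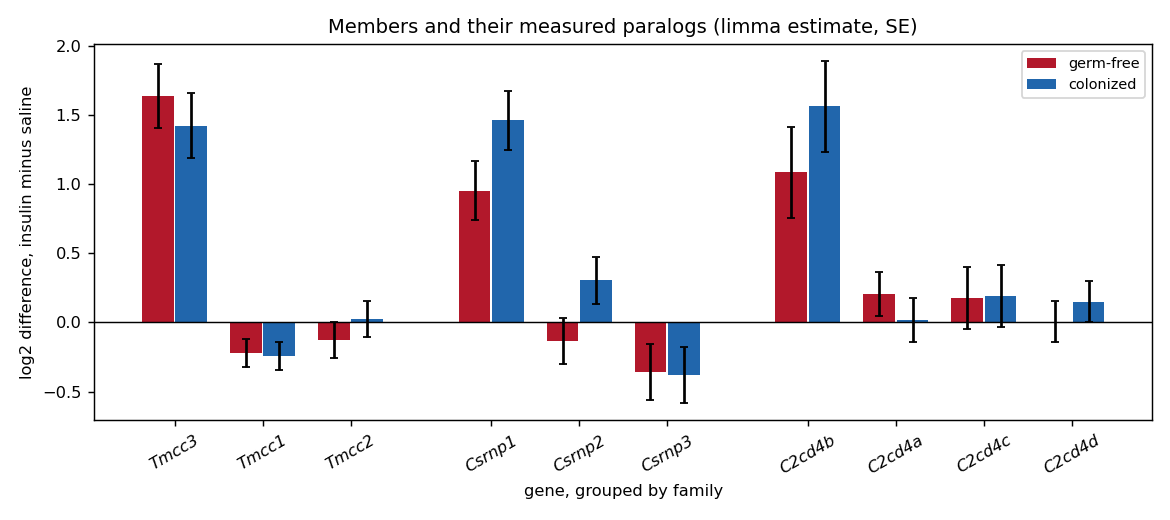
Insulin minus saline on the log2 scale (vertical axis) for Tmcc3, Csrnp1 and C2cd4b and their measured paralogs (horizontal axis), in germ-free and in colonized mice, with bars for limma estimates and whiskers for the SE. The 3 members stand between 0.95 and 1.64, and their paralogs between -0.38 and 0.30. The members were chosen for a rise after insulin and the paralogs were not, so nothing is read from this gap.

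Genes of related function were set beside the members from lists. The 28 immediate early genes had a median insulin effect of 0.34 in germ-free and 0.57 in colonized mice, against 0.01 and 0.00 over all genes, with 24 and 27 of 28 above 0. In germ-free mice 1 of the 28 was called higher, Fosb (0.99 ± 0.17, limma adjusted p = 0.0283), beside 0.143% of all named probe sets. In colonized mice 3 were called higher, Nr4a2 (2.12 ± 0.36), Fosb (1.26 ± 0.17) and Egr1 (1.20 ± 0.19), beside 0.112%. By the mean germ-free effect 11 of them were called higher and 2 lower, beside 6.14% and 11.5% of all named probe sets, the higher ones including Nr4a2 (1.44 ± 0.25), Ier3 (1.41 ± 0.18), Nr4a3 (1.25 ± 0.25) and Fosb (1.06 ± 0.12) and the lower ones being Jund (-0.45 ± 0.07) and Klf2 (-0.23 ± 0.07). Csrnp1, with 0.63, moved the same way as those 11. Taken by treatment, 10 of the 28 were called higher and 0 lower in germ-free mice after saline. After insulin 2 were called higher and 1 lower. Of all named probe sets 2.82% were called higher after saline and 2.62% after insulin.

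Proteins reported as midnolin cargo in mammalian cells are encoded by 7 measured genes. Their median insulin effect was 0.02 in germ-free and 0.59 in colonized mice. Fosb was called higher in both states. Egr1 was called in colonized mice (1.20 ± 0.19, against 0.15 ± 0.19 in germ-free mice, a difference not called). Nr4a1 had 0.41 ± 0.21 in germ-free and 1.17 ± 0.21 in colonized mice (limma adjusted p = 0.669 and 0.0525), and Fos had -0.06 ± 0.26 and 0.59 ± 0.26. The remaining genes, not called, were Pax8 (0.02 ± 0.16 in germ-free and 0.13 ± 0.16 in colonized mice), Gata1 (-0.19 ± 0.17 and 0.17 ± 0.17) and Irf4 (-0.04 ± 0.27 and -0.28 ± 0.27). The message for midnolin itself had 0.83 and 0.93.

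Of 18 other imprinted genes measured beside Mest none was called for insulin in either state (limma). Of all named probe sets 0.439% were called in germ-free and 0.153% in colonized mice. At such shares no call is expected in a list of this size. Their median insulin effect was -0.08 in germ-free and 0.16 in colonized mice. The largest mean insulin effects in size were those of Slc38a4, an amino acid transporter (-1.20 ± 0.40 in germ-free and 0.03 ± 0.40 in colonized mice), the growth factor Igf2 (0.36 ± 0.13 and 0.29 ± 0.13), the cell cycle inhibitor Cdkn1c (0.18 ± 0.13 and 0.47 ± 0.13) and Peg10 (0.25 ± 0.29 and 0.38 ± 0.29). For the mean germ-free effect 5 of the 18 were called, all lower in germ-free mice, beside 11.5% of all named probe sets called lower, namely Nnat (-1.17 ± 0.19), Peg3 (-0.78 ± 0.08), Usp29 (-0.68 ± 0.15), Dlk1 (-0.62 ± 0.18) and Gnas (-0.32 ± 0.07), while Mest was higher by 0.41.

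The remaining lists held few calls for insulin, for which 0.439% of all named probe sets were called in germ-free and 0.153% in colonized mice. For the mean germ-free effect 11.5% of all named probe sets were called lower and 6.14% higher. Of 11 measured genes of endoplasmic reticulum tubules none was called for insulin, with medians of -0.05 in germ-free and -0.10 in colonized mice, and Rtn1 (-1.01 ± 0.20) and Reep2 (-0.48 ± 0.15) were lower by the mean germ-free effect. Of 11 genes of the Axin and Wnt pathway none was called for insulin, with medians of 0.06 and 0.03. Of these the R-spondin receptor Lgr5 was lower by the mean germ-free effect (-0.65 ± 0.19, limma adjusted p = 0.0347). Among 11 genes set beside C2cd4b for their part in hormone granules and beta cells, Vgf was called in colonized mice (1.79 ± 0.28, limma adjusted p = 0.0429) and had 1.08 ± 0.28 in germ-free mice (adjusted p = 0.183). By the mean germ-free effect Scg3 (-0.86 ± 0.16), Glp1r (-0.68 ± 0.17) and Syt7 (-0.39 ± 0.10) of this list were lower and Foxo1 (0.30 ± 0.08) and Vps13c (0.25 ± 0.07) higher, while C2cd4b had -0.46 and was not called. Thus 3 of the 11 were called lower and 2 higher.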

How the data were processed

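RNA of the dissected adrenal medulla of 12 mice was hybridized to Affymetrix arrays, 1 array per animal. Values were used as deposited, on the log2 scale; RMA and limma stand in the submitters' processing notes, with no version. No source used here says whether all arrays were normalized together. Of 28846 rows, 19572 had 1 gene symbol in GEO's platform annotation and 9274 had none. A gene was represented by its brightest probe set (19505 genes).

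A model of 4 group means was fitted to the 12 arrays (limma 3.58.1, R 4.3.3, lmFit and eBayes, with 8 residual and 4.08 prior degrees of freedom), with Benjamini-Hochberg adjustment over the 19572 probe sets and a threshold of 0.05. SE values and intervals are from that fit. It was tested on simulated data. P-values rest on the spread between animals within groups, pooled over the 4 groups of 3 and moderated by limma.

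The members, lists and tests were chosen with earlier results of these data known. Named genes were the 5 members, their paralogs, and list genes that were called or had the largest mean insulin effects. All measured genes of midnolin cargo were named. The 3 genes most correlated with each member were also named, without symbols of the Gm and Rik kind. The same was done for deviations from group means.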

Additional observations from a re-analysis of the deposited data

How the results depend on the processing

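No paired analysis was possible because the groups share no animal numbers. The insulin effect of each of the 5 genes stayed above 0 in both states under all 22 alternatives, from 0.74 (Midn) to 2.19 (C2cd4b) in germ-free and from 0.80 (Midn) to 1.79 (C2cd4b) in colonized mice. For the mean germ-free effect, the 2 members called became 1 with the adipocyte covariate (Mest lost, 0.38) and 0 with the adrenal cortex covariate (Csrnp1 0.42, Mest 0.60) or the chromaffin covariate (Csrnp1 1.00, Mest 0.53), and 1 to 2 without single arrays. After saline the 1 member called became 0 with the compared groups alone and with the cortex covariate (0 to 1 without single arrays). After insulin the 1 called became 0 with a second quantile normalization, the compared groups alone, the adipocyte covariate (Mest 0.56) or the chromaffin covariate (Mest 0.82, above its 0.61), and 2 with array weights (0 to 1 without single arrays). Midn was called for the mean germ-free effect with arrays centred on their median (0.36, limma adjusted p = 0.0466), and C2cd4b with array weights (mean -0.68, adjusted p = 0.0318; after insulin -0.95, adjusted p = 0.0387). Estimates turned sign for C2cd4b with the chromaffin covariate (after saline 0.0048, after insulin 0.94, mean 0.47) and, without germ-free saline animal 7, for C2cd4b (0.0083) and Tmcc3 (-0.12) after saline, where leaving out single arrays gave -0.42 to 0.0083 and -0.12 to 0.18. The difference of insulin effects ranged over the alternatives from -0.08 to 0.67 for Tmcc3, from -0.29 to 0.12 for Midn, from -0.71 to 0.93 for C2cd4b and from -0.71 to 0.04 for Csrnp1, so its sign was not stable for these 4.

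Probe sets called varied more. For insulin in germ-free mice the 86 became 545 with array weights, 320 with the compared groups alone, 139 with the cortex and 3 with the chromaffin covariate (25 to 201 without single arrays). For insulin in colonized mice the 30 became 13 with all rows, 47 without dim probe sets, 51 with trend and robust options, 67 with array weights, 0 with the compared groups alone, and 7, 5 and 13 with the adipocyte, cortex and chromaffin covariates (1 to 71 without single arrays). For the germ-free effect after saline the 1351 became 2358 with array weights, 158 with the compared groups alone and 161 with the cortex covariate (435 to 1938 without single arrays). After insulin the 1521 became 3727 with array weights and 39, 2368 and 1 with the adipocyte, cortex and chromaffin covariates (451 to 2854 without single arrays). For the mean the 3454 became 5535 with array weights and 1602, 2167 and 142 with those covariates (2433 to 4904 without single arrays). The cause was not tested. No second probe set existed for any of the 5 genes.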

Other observations

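Within groups, the deviations of the members were set beside those of cell type marker means. These correlations were not tested, and no reference over all genes was taken. Midn and Csrnp1 had the same sign for most of the lists. Over 12 arrays, deviations from group means of C2cd4b correlated with those of the chromaffin marker mean at r = 0.75, the highest value of the 5 genes for that list. Csrnp1 correlated with the adipocyte marker mean at r = -0.74 and with the fibroblast marker mean at r = -0.73. It also correlated with liver (-0.66), endothelium (-0.54), pituitary (0.51) and chromaffin markers (0.46). Midn correlated with the pituitary marker mean at r = 0.70, with endothelium at -0.66, with adipocyte and fibroblast markers at -0.55 each, and with liver at -0.39. For macrophage markers Midn had -0.49 and Csrnp1 -0.28, and for adrenal cortex markers 0.10 and 0.35. With chromaffin markers Midn correlated at 0.29. Tmcc3 and Mest had values for all 10 marker lists between -0.48 and 0.48. The pituitary marker mean was 7.61 ± 0.59 (SD, n = 3) in germ-free insulin, 5.33 ± 0.33 in germ-free saline, 5.07 ± 0.25 in colonized insulin and 4.95 ± 0.08 in colonized saline mice. The part of these cells in the members' levels was not tested beyond the covariate fits for chromaffin, cortex and adipocyte markers.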
